A study of Homo sapiens with 6 samples.

Results

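Histone genes were compared between HaCaT keratinocytes depleted of TP63 and their controls, as 72 of the 18404 genes tested. They were all genes whose symbol in the array annotation began with H1-, H2A, H2B, H3-, H3C, H4- or H4C and that had a probe set assigned to them alone. Each of the 72 had exactly 1 such probe set. By symbol, 58 were replication-dependent genes, the clustered genes of the H1, H2A, H2B, H3 and H4 series, and 14 were variant or other genes. Of the replication-dependent genes, 49 lie on chromosome 6, 8 on chromosome 1 and 1 on chromosome 12. The pattern also took in 3 genes that do not encode a protein, the pseudogenes H2BC19P and H1-9P and the antisense RNA gene H1-10-AS1. H2BC19P counts here with the replication-dependent genes and the other 2 with the variant or other genes. H3-3A had no probe set assigned to it alone.

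HaCaT is a spontaneously immortalised human keratinocyte line. The shTP63 group held 3 samples that received a lentiviral short hairpin RNA against TP63, the gene of the basal epithelial transcription factor p63, and the shControl group held 3 samples that received a control vector. RNA of both groups was collected 72 hours after the knockdown and read on 1 array per sample. The labels do not say whether replicates were separate cultures, so each p-value covers only the variation among these arrays, and that variation may be technical in origin. TP63 itself was not analysed here, and all directions rest on the sample labels. All 10 measured keratinocyte markers had mean levels of 10.88 to 13.57 (log2 intensity), 6 of them fell and 1 rose. Of 14 markers of other cell types, 9 had levels below background in shTP63 and in shControl alike. The rest were all fibroblast markers: COL1A1 (8.49), LUM (8.01), COL3A1 (7.12), COL1A2 (7.11) and PDGFRB (6.93). Among the fibroblast markers only DCN (6.29) lay below background. COL1A1 rose by 0.18 (limma adjusted p = 0.0134), and the others above background did not pass. Background was set at 6.81, the level that 95% of 360 olfactory receptor genes did not exceed.

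Histones are the proteins around which nuclear DNA is wound. H2A, H2B, H3 and H4 form the core of the nucleosome and H1 binds the linker. Replication-dependent histone genes sit in clusters, are expressed mainly in S phase, and their mRNAs usually end in a stem-loop bound by SLBP instead of a poly(A) tail. Variant histone genes lie elsewhere, are expressed throughout the cell cycle, and give polyadenylated mRNAs whose proteins are placed at particular sites, such as H2A.Z near promoters and H3.3 in transcribed chromatin. Some clustered genes, H2BC4, H2BC5, H2BC12 and H2BC21 among them, are also known to give polyadenylated transcripts. Per the labels' protocols the labelling was primed with oligo-dT. How far the values of stem-loop mRNAs reflect their amount, and how far they reflect the share with a poly(A) tail, cannot be told apart in these data.

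The stretches of 250 bases before the annotated start of 5 members are shown because they belong to the genes with the deepest falls (H4C8 and H2BC12), to neighbouring H2A and H2B genes that share them (H2BC4 with H2AC6, and H2BC14 with H2AC14), and to a variant gene (H2AZ1). They come from RefSeq on GRCh38.p14, each on its gene's strand: chr6:26285535-26285784 (minus) for H4C8, chr6:27146859-27147108 (minus) for H2BC12, chr6:26123927-26124176 (minus) for H2BC4, chr6:27814772-27815021 (plus) for H2BC14 and chr4:99950276-99950525 (minus) for H2AZ1. Capitals mark the octamer ATTTGCAT known from H2B promoters, the TATA box letters TATAAA and the CCAAT box letters, on either strand.
H4C8: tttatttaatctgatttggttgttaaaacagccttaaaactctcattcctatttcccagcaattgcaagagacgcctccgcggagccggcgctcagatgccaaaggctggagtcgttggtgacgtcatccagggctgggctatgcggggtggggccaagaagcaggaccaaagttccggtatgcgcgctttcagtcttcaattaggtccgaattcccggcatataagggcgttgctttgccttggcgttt
H2BC12: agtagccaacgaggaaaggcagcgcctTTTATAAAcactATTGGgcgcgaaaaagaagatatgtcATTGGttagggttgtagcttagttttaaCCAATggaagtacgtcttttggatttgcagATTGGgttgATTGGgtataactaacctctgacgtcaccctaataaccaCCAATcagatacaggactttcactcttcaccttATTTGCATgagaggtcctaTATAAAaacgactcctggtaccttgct
H2BC4: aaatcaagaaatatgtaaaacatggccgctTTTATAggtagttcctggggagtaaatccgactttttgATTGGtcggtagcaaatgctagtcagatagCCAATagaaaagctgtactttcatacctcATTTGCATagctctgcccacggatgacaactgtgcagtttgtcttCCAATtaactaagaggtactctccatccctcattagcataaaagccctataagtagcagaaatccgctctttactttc
H2BC14: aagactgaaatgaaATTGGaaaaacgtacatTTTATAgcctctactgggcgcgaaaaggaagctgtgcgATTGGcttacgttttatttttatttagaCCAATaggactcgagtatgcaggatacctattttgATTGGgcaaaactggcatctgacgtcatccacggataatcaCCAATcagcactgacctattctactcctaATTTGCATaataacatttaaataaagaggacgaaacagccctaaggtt
H2AZ1: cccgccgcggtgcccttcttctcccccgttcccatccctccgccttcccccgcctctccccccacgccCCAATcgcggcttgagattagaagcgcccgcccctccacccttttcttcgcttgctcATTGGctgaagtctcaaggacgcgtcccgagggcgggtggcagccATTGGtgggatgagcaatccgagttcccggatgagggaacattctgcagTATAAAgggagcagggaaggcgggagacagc

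The octamer was found in 13 of 16 replication-dependent H2B genes and 10 of 13 H2A genes with a stretch in the table, and in 0 of 6 H1, 0 of 7 H3 and 0 of 10 H4 genes. Of all 27305 genes with such a stretch, 2.03% held it. The CCAAT letters were found in 45 of 52 replication-dependent genes and 10 of 11 variant or other genes, against 37.0% of all genes, and the TATA letters in 35 of 52 and 5 of 11, against 13.0%. The octamer shares no position with the other motifs where they are printed here, whereas TATA matches on the 2 strands overlap each other in H2BC12. The H4C8 stretch held none of the 3. A match describes the letters only, and no binding was measured. Of the 29 replication-dependent genes that fell and had a stretch, 15 held the octamer, as did 7 of the 19 that did not pass and 1 of the 4 that rose. Among these genes only H2A and H2B genes held it, so the octamer cannot be told apart from histone type here. No split within types was made. Neighbours that share a stretch each count in these numbers.

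Replication-dependent histone genes were mostly lower in shTP63. Of the 58 genes, 32 fell, 4 rose and 22 did not pass an adjusted p of 0.05 in limma, where 25.1% of all genes fell, 16.4% rose and 41.5% changed in either direction. The median log2 difference, shTP63 minus shControl, was -0.21 in these genes and -0.01 in all genes. The median level of the 58 genes was 9.51, 9.41 and 9.60 in the shTP63 arrays, against 9.62, 9.67 and 9.71 in the shControl arrays. The 2 sets of 3 medians did not overlap. In 41 of the 58 genes the groups did not overlap, against 51.4% of all genes, and in 36 the 3 shTP63 values all lay below the 3 shControl values, against 30.4% of all genes. Falls were more frequent among bright probe sets in general, and 37 of the 58 genes belonged to the top 2 of 5 equally sized classes of mean signal. There 24 of the 37 genes fell (64.9%), against 43.5% of all genes in those classes, and the median difference was -0.25 against -0.10. In the other 3 classes 8 of 21 fell (38.1%), against 12.8% of all genes there, and the medians were -0.05 and 0.01. Of these 21 genes 15 belonged to the brightest of the 3 classes, where 25.4% of all genes fell. The 12.8% is therefore low for their signal. The falls there include H2AC13, which lay below background. The part of signal level in these counts was not tested beyond this.

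The share of rises and falls among all genes moves with the scaling of the arrays. Falls made up 60.5% of all calls as deposited and 81.7% when array medians were set equal, a scale on which the typical gene differed by -0.12. There 42 of the 58 replication-dependent genes fell and 3 rose (median -0.31), where 43.1% of all genes fell and 9.68% rose. After cyclic loess 30 fell and 3 rose (median -0.18, against -0.03 for all genes), where 23.8% of all genes fell. When only probe sets of a single gene entered the quantile normalization, 30 fell and 6 rose (median -0.16, against -0.01). In that fit 21.3% of all genes fell. Of the 32 genes that fell, 27 also fell in every one of the 14 alternative fits in which they were tested.

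**Figure D1:**
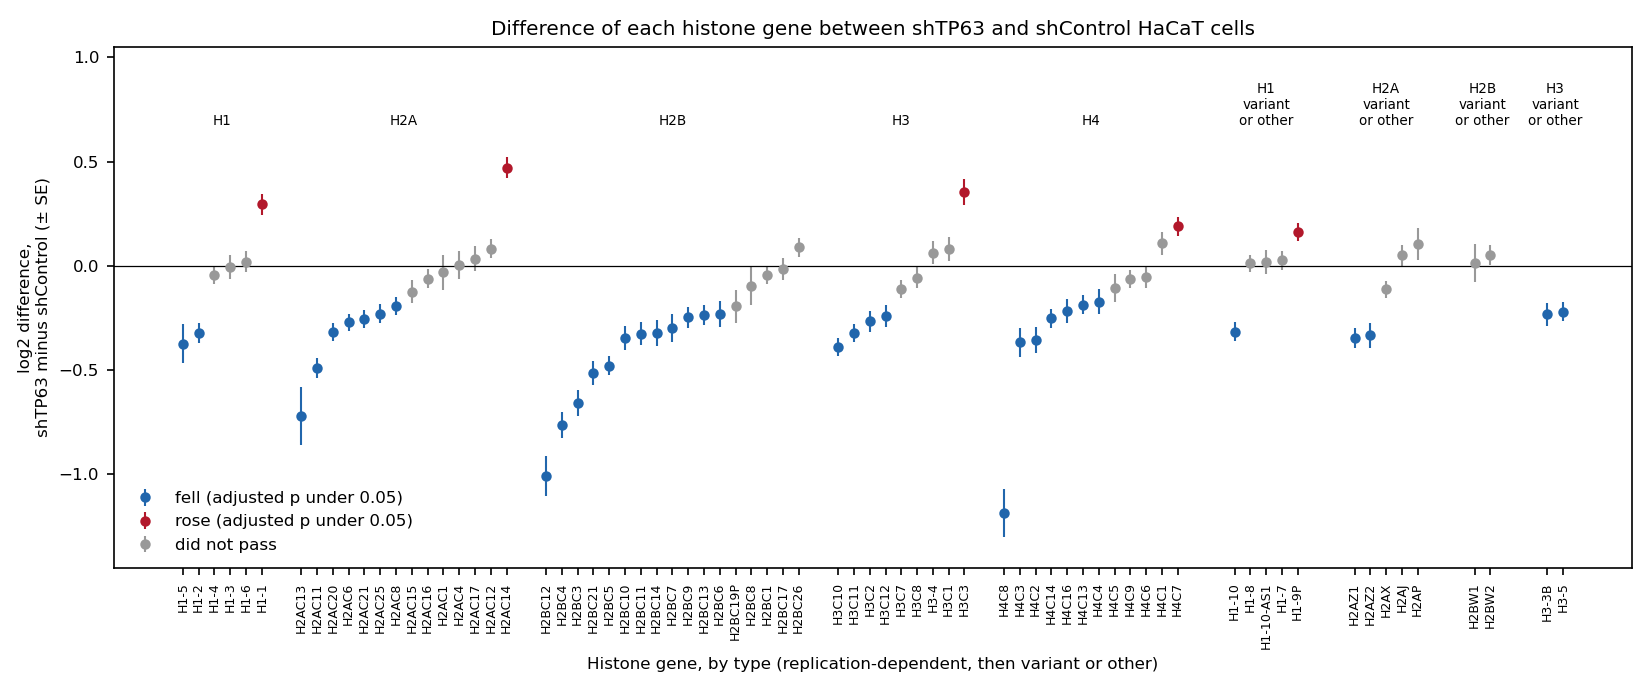
Log2 difference of each of the 72 histone genes (y axis, shTP63 minus shControl, ± SE), grouped by histone type along the x axis, with replication-dependent genes on the left and variant or other genes on the right. Blue genes fell, red genes rose and grey genes did not pass. H4C8 at -1.19 and H2BC12 at -1.01 lie lowest, and H2AC14 at 0.47 lies highest.

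The linker histones H1 compact chromatin between nucleosomes. Of 6 replication-dependent H1 genes, 2 fell (33.3%), 1 rose and 3 did not pass (median -0.03). Of all genes 25.1% fell and 16.4% rose, and 43.5% of those in the top 2 classes of mean signal fell. H1-2, the gene of a widely expressed linker histone, had 10.61, 10.48 and 10.50 in shTP63 (log2 intensity), against 10.84, 10.85 and 10.88 in shControl. All its shTP63 values lay below the shControl values, and it fell by 0.33 (SE 0.048, limma adjusted p = 0.000606). H1-5 had 10.46, 10.08 and 10.28 in shTP63, against 10.54, 10.66 and 10.75 in shControl. Its groups did not overlap either, although shTP63 replicate 1 came close to the controls, and it fell by 0.37 (SE 0.094, limma adjusted p = 0.0110). H1-1 went the other way, with 9.01, 9.02 and 8.95 in shTP63 against 8.69, 8.63 and 8.78 in shControl. It rose by 0.29 (SE 0.051, limma adjusted p = 0.00152), with no overlap. H1-4 had 13.50, 13.47 and 13.45 in shTP63 against 13.49, 13.54 and 13.52 in shControl, and its difference of -0.05 (95% interval -0.14 to 0.05) did not pass. H1-6, a testis gene, lay below background in both groups and differed by 0.02 (interval -0.10 to 0.13).

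H2A pairs with H2B in the nucleosome. Of 14 replication-dependent H2A genes, 7 fell (50.0%), 1 rose and 6 did not pass (median -0.16), where 25.1% of all genes fell. H2AC11 had 9.69, 9.56 and 9.62 in shTP63, against 10.11, 10.14 and 10.09 in shControl. The groups lay well apart and H2AC11 fell by 0.49 (SE 0.047, limma adjusted p = 5.29e-05), 1.41-fold. H2AC20, a gene of the chromosome 1 cluster, had 11.91, 11.88 and 11.87 in shTP63, against 12.19, 12.17 and 12.25 in shControl, and fell by 0.32 (SE 0.043, limma adjusted p = 0.000359). H2AC21, of the same cluster, fell by 0.26 (SE 0.043) and H2AC6 by 0.27 (SE 0.042). H2AC14 had 7.996, 7.92 and 8.05 in shTP63, against 7.51, 7.48 and 7.56 in shControl. It was the largest rise among the 72 genes, 0.47 (SE 0.050, limma adjusted p = 9.66e-05) or 1.39-fold. The largest fitted fall of the type was that of H2AC13, named after its value was seen, which fell by 0.72 (SE 0.140). Both groups of H2AC13 lay far below background, with 3.47, 3.19 and 3.22 in shTP63 and 4.27, 3.67 and 4.10 in shControl, so that value is uncertain.

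H2B was the type with the highest share of falls. Of 17 replication-dependent H2B genes, 12 fell (70.6%), 0 rose and 5 did not pass in limma, with a median of -0.30. Of all genes 25.1% fell and 16.4% rose, and 43.5% of those in the top 2 classes of mean signal fell. The types were not tested against each other. At an unadjusted p under 0.05, 13 were lower and 0 higher. H2BC12 had 11.08, 10.91 and 10.70 in shTP63, against 11.85, 12.04 and 11.83 in shControl. It fell by 1.01 (SE 0.094, limma adjusted p = 4.96e-05), 2.01-fold. H2BC4 had 8.13, 7.999 and 8.08 in shTP63, against 8.77, 8.95 and 8.78 in shControl, and fell by 0.76 (SE 0.060, limma adjusted p = 2.03e-05), the smallest adjusted p of the 72 genes. H2BC3 had 8.06, 7.87 and 7.84 in shTP63, against 8.56, 8.57 and 8.62 in shControl, and fell by 0.66 (SE 0.062). In each of these 3 genes the lowest shControl value lay above the highest shTP63 value by more than the SE of the difference. H2BC21 fell to 10.19 ± 0.072 in shTP63, against 10.71 ± 0.082 in shControl (SD, n = 3), a difference of -0.52 (SE 0.058). Probe sets that name H2BC21 together with other genes differed by -0.09 (mean 12.85) and 0.06 (mean 10.25). Neither passed in a fit over all probe sets, so the fall of H2BC21 rests on its own probe set. A probe set that names H2BC5 and H2BC12 with other genes differed by -0.40 and passed there. H2BC5 fell to 8.78 ± 0.021 in shTP63, against 9.26 ± 0.060 in shControl (SD, n = 3), a difference of -0.48 (SE 0.046). These 5 genes made up 5 of the 8 replication-dependent genes that fell by more than 0.4, where 7.03% of all genes had a difference under -0.4. H2BC4, H2BC5, H2BC12 and H2BC21, given above as genes with polyadenylated transcripts, are all among them. No list of such genes was set beforehand and these names are not a full list, so no link between polyadenylation and the size of a fall can be read from this. Whether the falls of the genes named here differ from those of the other H2B genes was not tested. The other falls of the type ranged from -0.35 to -0.23.

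H3 carries the tail positions best known for methylation marks. Of 9 replication-dependent H3 genes, 4 fell (44.4%), 1 rose and 4 did not pass (median -0.11). Among all genes 25.1% fell and 16.4% rose, and 43.5% of those in the top classes of mean signal fell. The share of falls of the H3 genes was therefore close to that of bright genes in general. H3C10 had 10.06, 10.04 and 10.13 in shTP63, against 10.46, 10.45 and 10.49 in shControl, and fell by 0.39 (SE 0.044, limma adjusted p = 0.000137). H3C11 had 12.78, 12.75 and 12.77 in shTP63, against 13.07, 13.08 and 13.13 in shControl, and fell by 0.32 (SE 0.042, limma adjusted p = 0.000277). Both genes were tight within each group. H3C2 fell by 0.27 (SE 0.049) and H3C12 by 0.24 (SE 0.054). H3C3 had 8.57, 8.72 and 8.72 in shTP63, against 8.23, 8.30 and 8.42 in shControl. All its shTP63 values were higher, and it rose by 0.35 (SE 0.064, limma adjusted p = 0.00183).

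H4 pairs with H3 in the core of the nucleosome. Of 12 replication-dependent H4 genes, 7 fell (58.3%), 1 rose and 4 did not pass (median -0.18), where 25.1% of all genes fell. In the top 2 classes of mean signal 43.5% of all genes fell. Among the 7 falls, H4C4 lost its call in 8 of 14 alternatives, H4C16 in 2 and H4C13 in 1. H4C8 had 10.10, 9.64 and 9.63 in shTP63, against 10.98, 11.02 and 10.93 in shControl. Its fall of 1.19 (SE 0.113, limma adjusted p = 5.51e-05), 2.28-fold, was the largest of the 72 genes. The shTP63 arrays spread more than the shControl arrays, with SDs of 0.27 and 0.044 (n = 3 each), and over the alternatives the difference ranged from -1.34 to -1.10. H4C3 had 11.80, 11.74 and 11.998 in shTP63, against 12.17, 12.21 and 12.26 in shControl, and fell by 0.37 (SE 0.069). H4C2 fell by 0.36 (SE 0.064) and H4C14 by 0.25 (SE 0.046). The rise, that of H4C7 (0.19, SE 0.045), was measured below background in both groups and lost its call under 3 scalings, among them cyclic loess (difference 0.14, limma adjusted p = 0.0633).

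**Figure D2:**
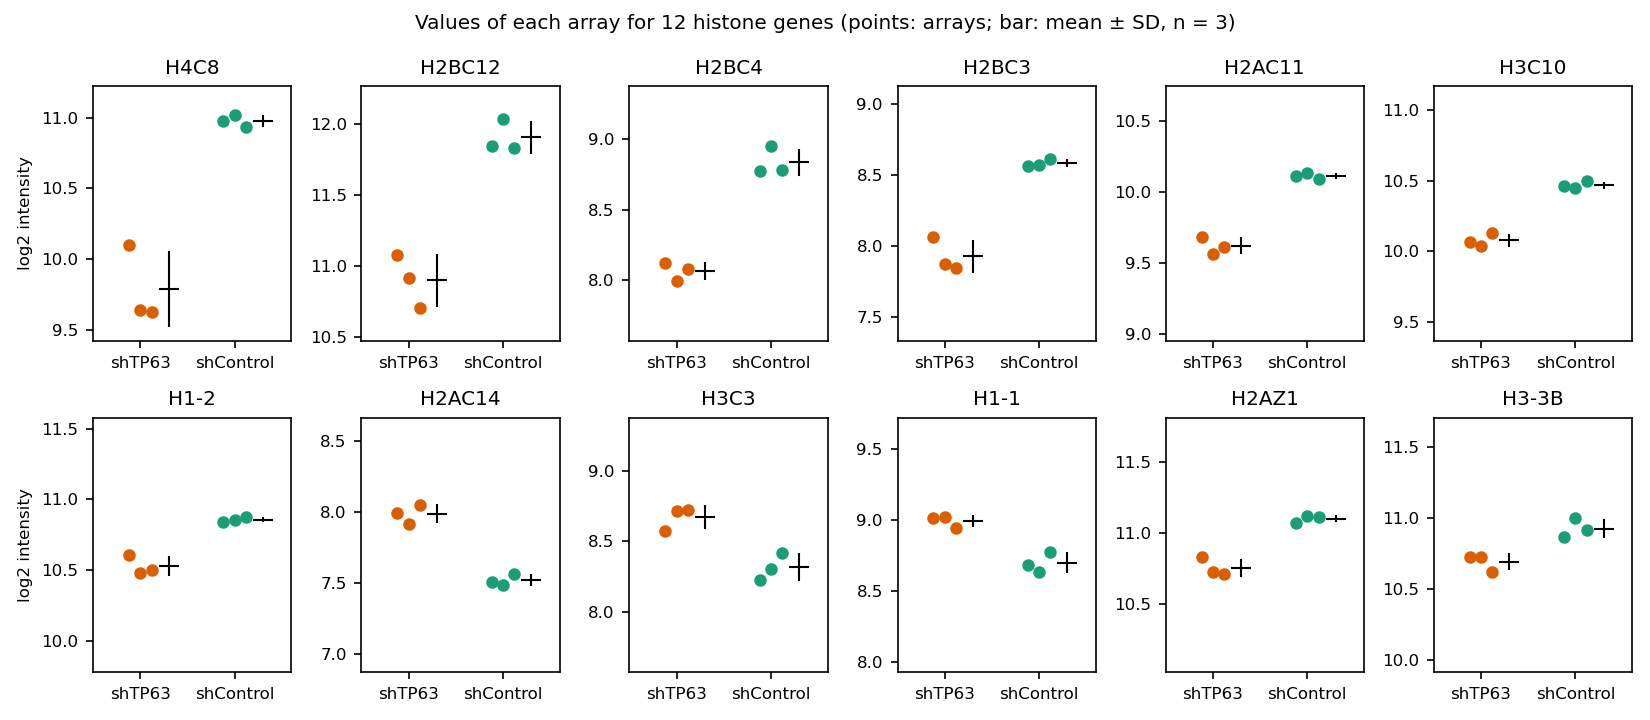
Log2 intensity of each array (y axis) for 12 histone genes, shTP63 left of shControl. Points are arrays and the black bar is the mean ± SD (n = 3). The groups do not overlap in any of the 12 genes, which are a selection and do not stand for the rest. Among all 72 histone genes the groups do not overlap in 48, and among all genes tested in 51.4%. H4C8 in shTP63 has 1 array at 10.10 above the others at 9.64 and 9.63.

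Neighbouring H2A and H2B genes often face away from each other and share the stretch between them. In RefSeq 9 such pairs had both genes among the 72. Both genes fell in 4 pairs, exactly 1 of them fell in 3 pairs, and neither passed in 2 pairs. H2AC13, H2AC1 and H2BC1 lay below background in both groups, and in the 7 pairs without them both genes fell in 3, exactly 1 in 3 and neither passed in 1. In the pair of H2AC6 and H2BC4, whose shared stretch is printed above under H2BC4, the differences were -0.27 and -0.76. In the pair of H2AC14 and H2BC14, printed under H2BC14, H2AC14 rose by 0.47 while H2BC14 had 11.83, 12.02 and 12.03 in shTP63 against 12.31, 12.23 and 12.32 in shControl and fell by 0.32 (SE 0.062). The difference between these 2 changes was 0.79, and the H2A to H2B ratio of each shTP63 array lay above that of each shControl array. An exact permutation test of that ratio over samples gave p = 0.10 (two-sided), the smallest that 3 against 3 samples allow, and 0.18 after Benjamini-Hochberg adjustment over the 9 pairs. In 5 of the 9 pairs the ratios of the groups did not overlap, where the levels of 51.4% of all genes did not. No such share was computed for the ratios of other gene pairs. Of the 7 pairs above background, the H2B gene had the lower difference in 4 and the H2A gene in 3, among them H2AC11 with H2BC11 (-0.49 and -0.33) and H2AC25 with H2BC26 (-0.23 and 0.09).

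**Figure D3:**
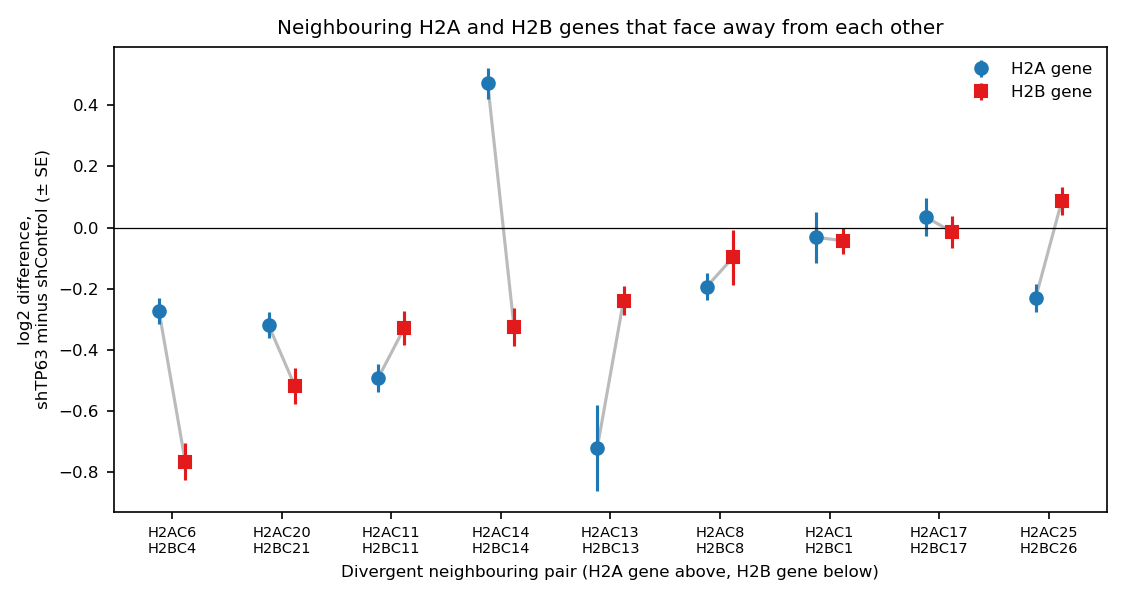
Log2 difference (y axis, shTP63 minus shControl, ± SE) of the H2A gene (blue circle) and the H2B gene (red square) of the 9 divergent neighbouring pairs along the x axis. H2AC14 at 0.47 and H2BC14 at -0.32 both passed and lie on opposite sides of 0. Both genes fell in the pairs of H2AC6, H2AC20, H2AC11 and H2AC13. The pairs of H2AC8 and H2AC1 also lie below 0, and those of H2AC25 and H2AC17 lie on opposite sides of it.

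Variant histone genes did not move as one. Of the 14 variant or other genes, 5 fell, 1 rose and 8 did not pass, and the median difference was 0.01. Their median level was 8.40, 8.34 and 8.40 in the shTP63 arrays, against 8.37, 8.31 and 8.33 in the shControl arrays, with overlap. The share of falls, 35.7%, stands against 25.1% of all genes. The 5 genes that fell are among the 6 of the 14 in the top 2 classes of mean signal, where 43.5% of all genes fell. A difference between variant and replication-dependent genes was not tested.

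Both genes of H2A.Z, the variant placed next to promoters, were lower. H2AZ1 had 10.83, 10.73 and 10.71 in shTP63, against 11.07, 11.12 and 11.11 in shControl, and fell by 0.35 (SE 0.048, limma adjusted p = 0.000390). H2AZ2 had 10.58, 10.77 and 10.56 in shTP63, against 10.96, 11.005 and 10.94 in shControl, and fell by 0.33 (SE 0.061, limma adjusted p = 0.00198). In both genes the groups did not overlap. H3-3B, a gene of the H3.3 variant used outside replication, had 10.73, 10.72 and 10.62 in shTP63, against 10.86, 10.999 and 10.91 in shControl. It fell by 0.23 (SE 0.053, limma adjusted p = 0.00646). H3-5, which arose as a copy of H3-3B and may share signal with it, fell by 0.22 (SE 0.045). H1-10, a linker variant, had 9.26, 9.31 and 9.25 in shTP63, against 9.59, 9.65 and 9.54 in shControl, and fell by 0.32 (SE 0.046, limma adjusted p = 0.000551). These 5 genes kept their calls in all 14 alternative fits.

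H2AX, whose protein is phosphorylated at DNA breaks, had 10.10, 10.11 and 10.14 in shTP63, against 10.20, 10.24 and 10.24 in shControl. The groups did not overlap, but the difference of -0.11 (interval -0.21 to -0.02) did not pass (limma adjusted p = 0.0532). It passed in 3 of 14 alternatives, with adjusted p of 0.00235 to 0.527 over all of them. H2AJ differed by 0.05 (interval -0.07 to 0.17). The germline genes H1-7, H1-8 and H2BW2 differed by 0.03, 0.01 and 0.05. The antisense RNA gene H1-10-AS1 differed by 0.02, and whether the labelling kept strand apart is not given in the sources used here. The only rise of the class was that of the pseudogene H1-9P, 0.16 (SE 0.044, limma adjusted p = 0.0162), which lost its call in 4 alternatives, among them the fits without shControl replicate 3 (adjusted p = 0.0702) and without shTP63 replicate 2 (adjusted p = 0.0571). MACROH2A1 and MACROH2A2, genes of the macroH2A variant outside the symbol pattern, differed by -0.09 and -0.05 and did not pass.

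**Figure D4:**
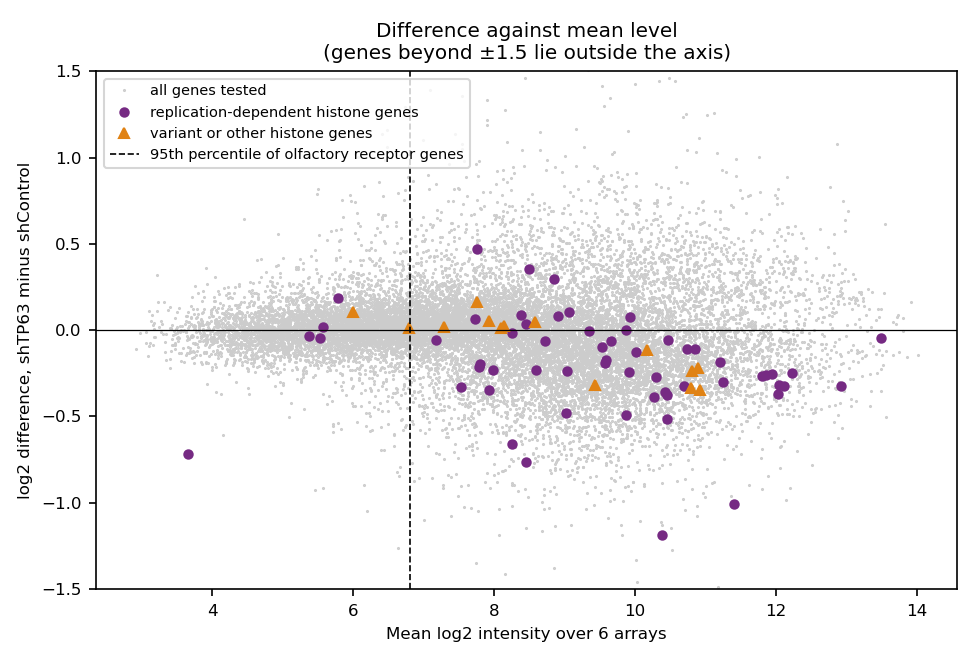
Log2 difference (y axis, shTP63 minus shControl) against the mean log2 intensity over 6 arrays (x axis) for the genes tested (grey, the few beyond the axis not drawn), replication-dependent histone genes (purple circles) and variant or other histone genes (orange triangles). The dashed line marks 6.81, and the variant genes that fell, like 24 of the 32 replication-dependent falls, lie in the top 2 of 5 classes of mean signal.

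Replication-dependent histone genes are near-identical in their coding parts, so their separate values are uncertain. A further 21 probe sets were annotated to several histone genes at once and entered no test of single genes, of which 16 named genes of the clusters, 4 the H3.3 gene H3-3A with a related pseudogene and 1 the short H2A variants H2AB. In a fit over all 32321 probe sets 13 of the 21 were lower in shTP63, 0 were higher and 8 did not pass. Called differences ran from -0.46 to -0.21. Of all probe sets, 11775 of them unlisted, 16.5% were lower and 18.2% higher. Most of the 13 were bright, and 43.5% of genes in the top 2 classes of mean signal fell. No share of probe sets at like signal was computed. A called probe set of H4C11 and H4C12 lay far below background (mean 3.26). The 13 comprised 10 of the 16 probe sets of cluster genes and 3 of the 4 that name H3-3A.

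The genes that serve histone supply were taken from lists of general knowledge. Of 31 measured genes of the histone locus body and histone mRNA processing, 15 fell (48.4%) and 2 rose (median -0.13), where 25.1% of all genes fell. In the top 2 classes of mean signal 11 of 23 fell, close to the 43.5% of all genes there. In the other classes 12.8% of all genes fell, from 4.43% in the dimmest to 25.4% in the brightest of them. The remaining genes of this list are few and were not compared at like signal. NPAT, the coactivator that starts transcription of the clusters in S phase, had a mean of 10.20 in both groups and did not pass (difference 0.00, SE 0.047). CASP8AP2, its partner in the histone locus body, differed by 0.08 (SE 0.055), and SLBP, the stem-loop binding protein, by -0.15 (SE 0.057, limma adjusted p = 0.0608), which passed in 4 of 14 alternatives. HINFP, a transcription factor of H4 genes, fell by 0.34 (SE 0.049), the SLBP-binding translation factor MIF4GD by 0.28 (SE 0.043), the cap-binding subunit NCBP2 by 0.36 (SE 0.054) and LSM1, a subunit of the ring that starts mRNA decay, by 0.50 (SE 0.081).

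Of 37 histone chaperone and chromatin assembly genes, 13 fell (35.1%) and 2 rose (median -0.09). Of the 30 in the top 2 classes of mean signal 10 fell, against 43.5% of all genes there with a median of -0.10. At that signal this list's share of falls was not above that of all genes. Its few genes in the other classes were not compared at like signal, since by class 4.43% to 25.4% of all genes fell there. Of those that fell, NAP1L3 lay below background (mean 4.93). The histone importin IPO4 fell by 0.36 (SE 0.045), the H2A-H2B chaperones NAP1L1 by 0.37 (SE 0.046) and NAP1L4 by 0.25 (SE 0.040), and the nucleoplasmin family gene NPM3 by 0.30 (SE 0.051). CHAF1A and NASP rose and were picked for naming on sight of their values: CHAF1A, a subunit of the replication-coupled assembly factor CAF-1, by 0.28 (SE 0.062), and NASP, an H1 and H3-H4 chaperone, by 0.17 (SE 0.044). NASP did not pass with array medians set equal (0.06, limma adjusted p = 0.314) and without shControl replicate 3 (0.16, limma adjusted p = 0.0502). Of 12 subunits and partners of the complexes that exchange H2A.Z, 6 fell (50.0%) and 0 rose in limma, where 25.1% of all genes fell and 16.4% rose. In the top 2 classes of mean signal 5 of 10 fell, against 43.5% of all genes there. ACTR6 fell by 0.32 (SE 0.049), ACTL6A by 0.36 (SE 0.057), RUVBL1 by 0.28 (SE 0.049) and YEATS4 by 0.24 (SE 0.045). At an unadjusted p under 0.05, 1 of the 12 were higher. After centring on the array median 21 of the processing genes, 25 of the chaperone genes and 10 of the H2A.Z exchange genes fell. On that scale 43.1% of all genes fell, and the share at like signal was not computed.

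Of 38 measured S-phase and DNA replication genes, 8 rose (21.1%), 3 fell (7.89%) and the median was 0.03, where 16.4% of all genes rose and 25.1% fell. In the top 2 classes of mean signal 7 of 32 rose and 2 fell, against 21.9% and 43.5% of all genes there. The difference from the histone genes was not tested. ORC6, an origin recognition subunit, rose by 0.57 (SE 0.053), the polymerase alpha subunit POLA2 by 0.28 (SE 0.042), the replication initiator MCM10 by 0.34 (SE 0.061) and the helicase subunit MCM6 by 0.21 (SE 0.044), a call that was lost after centring on the array median. The split depends on the scaling, with 14 rises and 1 fall after cyclic loess. After centring on the array median 3 rose and 14 fell, where 42 replication-dependent histone genes and 43.1% of all genes fell. The share of cells in S phase was not measured, and a change in that share cannot be told apart from a change in RNA per cell in these samples.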

How the data were processed

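Total RNA of 6 HaCaT samples was read on 1 array each. Per the labels' protocols, cDNA synthesis was primed with oligo-dT and biotinylated cRNA was hybridised. Per the submitters' processing notes, the authors used RMA (background correction, normalization between arrays, probe set summary) with R 2.15.1. The deposited intensities were linear, with array medians of 173 to 190, and log2 was taken here. Of 32321 probe sets, 19158 carried 1 gene, 1388 several and 11775 were unlisted. For each of 18404 genes the probe set with the highest mean was used.

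Groups, taken from sample titles, were tested against each other by lmFit and eBayes of limma 3.58.1 under R 4.3.3 (two-sided, no covariate, Benjamini-Hochberg over all genes, threshold 0.05). Pair ratios used SciPy 1.17.1. Arrays give no counts, so 3 per group limit the precision (median within-group SD 0.065). In simulated data of this comparison with 200 of 18404 genes changed, 14.6% of changes of 0.2, 85.4% of 0.5 and 98.5% of 1 (log2) were recovered, with 2.21% false calls. In the measured data 41.5% of genes were called, so the adjustment set a different cut on p there. The simulated rates therefore do not give the recovery or the false calls of the measured data. Named genes were, per histone type, the 5 replication-dependent genes with the smallest adjusted p, the variant genes above background, NPAT, SLBP and CASP8AP2, and the 4 with the smallest adjusted p per supply list. Members and lists were chosen with earlier results of these data known. All 72 members matched RefSeq of GRCh38.p14 by symbol, and 63 had an upstream stretch. Equal replicate numbers did not pair the samples.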

Additional observations from a re-analysis of the deposited data

How the results depend on the processing

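The falls of replication-dependent histone genes numbered 32 as reported and 29 to 42 over the alternatives that changed the fit, and their rises 3 to 6. Leaving out each array in turn gave 29 to 33 falls. With the replicate number as a replicate block, 31 fell and 4 rose. The correlations of the deviations of same-numbered samples were -0.15, -0.0368 and 0.125, so the numbers were not read as pairs. Centring on the array median gave 1782 rises and 7932 falls over all genes, which follows from the shift of all differences to a median of -0.12. The rise among variant genes (H1-9P) was lost, leaving 0 by limma, after another quantile normalization, after centring, at an adjusted p of 0.01, and with protein-coding members only, a choice made after seeing the data. At an unadjusted p under 0.05, 0 variant genes were higher under both scalings. Over the fits that leave out 1 array, 0 to 1 variant genes rose. The cause was not tested. Of 1321 differences of 95 genes (all members and the named genes of the lists) under 14 alternatives, 1264 kept their side of the threshold, 23 lost a call, 34 gained one and 0 reversed. Signal over background limits H2AC13, H2BC1 and H2AC1 and the 4 other members that lie below it in both groups.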
